A study of Mus musculus with 35 samples.

Results

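Axl, Mertk, Gas6 and Pros1 encode the receptors and ligands of the TAM system (named after Tyro3, Axl and MerTK), and their transcripts were followed through 35 RNA-seq samples of mouse microglia. The genes were chosen by name, with earlier results of these data known, and all 4 were found among the 21236 genes of the count table. Every sample came from an adult mouse heterozygous for Tmem119-2A-CreERT2 and Ai14(RCL-tdTomato)-D that had been given tamoxifen, so that cells with the Tmem119 promoter active at that time carried tdTomato, and tdTomato-positive cells were sorted from each region. The 12 mice, 6 of each sex, gave 12 midbrain, 12 striatum and 11 prefrontal cortex (PFC) samples, with 6 samples per sex in each region except male PFC, where there were 5. No group was left without the reporter or without tamoxifen, the sort keeps any other cell that switched the reporter on, and a mouse number shared by the titles links the regions of a mouse. The question was whether these transcripts differ between regions and between males and females.

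TAM receptors are receptor tyrosine kinases of phagocytes. Gas6 and protein S (the product of Pros1) are secreted proteins that hold phosphatidylserine on the surface of dying cells or membrane fragments with one end and a TAM receptor with the other, so that they bridge the prey to the phagocyte. Gas6 binds all of the TAM receptors, whereas protein S is a ligand of MerTK and Tyro3. MerTK serves the routine uptake of dying cells, while Axl is low in resting microglia and is induced by interferon and inflammatory signals, and both receptors also dampen cytokine signalling.

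Total counts ran from 37680501 to 54131421 per sample, and 3 counts corresponded to 0.0561 to 0.0789 CPM (counts scaled to library size with TMM factors). The sorted cells were microglia by their markers: 12 of 12 transcripts of homeostatic microglia were measured, and their summed level was 48524 to 55515 CPM in the midbrain, 52916 to 61771 in the striatum and 50590 to 59027 in the PFC. Markers of other cells were much lower, with the astrocyte list at 211 to 503 CPM per sample, the oligodendrocyte list at 232 to 866 and the neuronal list at 3.11 to 28.3. One midbrain sample, from mouse 6, stood apart with 141 CPM of border macrophage markers against at most 20.9 in any other midbrain sample. One striatum column carries a PFC-like name in the table but the label of the striatum of mouse 3, and it was used as the label says.

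In the GRCm38 annotation (GENCODE M21), Axl (ENSMUSG00000002602) lies on the minus strand at chr7:25757273-25788705, Mertk (ENSMUSG00000014361) on the plus strand at chr2:128698956-128802894, Gas6 (ENSMUSG00000031451) on the minus strand at chr8:13465374-13494490 and Pros1 (ENSMUSG00000022912) on the plus strand at chr16:62854307-62929346. Their exons cover 5033, 4336, 2548 and 4088 bases, and the values below count reads over whole genes. Gas6 shares 34 exon bases with Tmem255b on the opposite strand, a gene that is not in the count table, and Mertk overlaps an antisense gene and a snoRNA gene with no shared exon bases. Since the use of strand in counting was not given in the sources used here, reads from such overlaps cannot be told apart.

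The proximal promoters of the 3 genes with a regional difference are shown to give their sequence context, as the 250 bases before the RefSeq start (GRCm38.p6), with GC boxes (GGGCGG on either strand, overlapping copies included) in capitals. The Axl stretch is chr7:25788734-25788983 on the minus strand, the Gas6 stretch chr8:13494536-13494785 on the minus strand and the Pros1 stretch chr16:62854057-62854306 on the plus strand, each written in the direction of its gene.
Axl: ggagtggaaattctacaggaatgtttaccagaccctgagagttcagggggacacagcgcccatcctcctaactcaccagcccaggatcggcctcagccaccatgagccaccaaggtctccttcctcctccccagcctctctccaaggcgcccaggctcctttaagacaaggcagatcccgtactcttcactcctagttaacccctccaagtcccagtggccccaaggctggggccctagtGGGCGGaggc
Gas6: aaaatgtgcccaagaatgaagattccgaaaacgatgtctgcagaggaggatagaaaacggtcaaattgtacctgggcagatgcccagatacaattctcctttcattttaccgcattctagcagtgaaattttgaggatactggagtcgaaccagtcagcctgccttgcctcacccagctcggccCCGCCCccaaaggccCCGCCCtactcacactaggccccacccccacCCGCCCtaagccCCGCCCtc
Pros1: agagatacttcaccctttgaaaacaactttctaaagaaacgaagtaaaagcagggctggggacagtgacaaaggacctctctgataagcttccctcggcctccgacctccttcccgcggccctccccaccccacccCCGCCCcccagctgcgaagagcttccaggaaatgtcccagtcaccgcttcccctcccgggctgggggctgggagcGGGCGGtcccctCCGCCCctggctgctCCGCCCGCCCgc
The Axl stretch holds 1 GC box, the Gas6 stretch 4, the Pros1 stretch 5 and that of Mertk 3, while 32.7% of the 32851 promoters in the table hold at least 1. The core of the interferon-stimulated response element (2 copies of GAAA with 2 bases between them, either strand), present in 2.98% of these promoters, was found in none of the 4 stretches. The gamma-activated sequence (TTCNNNGAA, either strand), present in 7.02%, occurs once in Pros1 and not in the other 3. The AP-1 motif TGANTCA (6.75% of promoters) and the PU.1 motif GAGGAAGT (2.44%) were absent from all 4, and these matches describe letters in a short window only.

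Compared per length of exon, the ligand Pros1 and the receptor Mertk were the most abundant of the 4, followed by Gas6, and Axl was far lower. In the midbrain the mean RPKM (CPM per kilobase of exon) was 140.5 ± 13.7 (SD, n = 12) for Pros1, 104 ± 10.9 for Mertk, 65.5 ± 6.42 for Gas6 and 10.9 ± 4.19 for Axl. Pros1 was above Mertk in 12 of 12 midbrain samples, although their ranges overlapped. In the striatum the mean RPKM was 125 ± 15.7 for Pros1, 116 ± 7.07 for Mertk, 89.5 ± 7.21 for Gas6 and 3.97 ± 2.04 for Axl (n = 12), and Pros1 exceeded Mertk in 9 of 12 samples by a mean log2 ratio of 0.10 ± 0.18. In the PFC, Mertk at 112 ± 16.3 RPKM and Pros1 at 111 ± 16.1 (n = 11) did not differ beyond their spread, with a mean log2 ratio of 0.01 ± 0.29, and Mertk was above Pros1 in 3 of 11 samples. Gas6 (79.8 ± 7.83) and Axl (2.13 ± 1.05) followed there in the same order. Axl ranked 3879th among all genes by mean RPKM in the midbrain and 8645th in the PFC, whereas Mertk ranked 442nd and 409th.

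Of the 4 genes, 3 had an effect of region (Axl, Gas6 and Pros1, each with an adjusted p under 0.05 in edgeR's quasi-likelihood test), against 8.89% of all 21236 genes. A pair of regions was then called where the region effect held, the contrast had an unadjusted p under 0.05 and the fold change was over 1.2. In PFC compared to midbrain, Gas6 was called higher (2.75% of all genes were), while Axl and Pros1 were called lower (3.24% of all genes). In striatum compared to midbrain, Gas6 was called higher (3.5% of all genes) and Axl lower (2.98%). In striatum compared to PFC, Axl alone was called, and it was higher in the striatum (2.31% of all genes), while no member was higher in the PFC (0.833%). On this scaling, which centres the table, the median log2 fold change of all genes was 0.01 for each of these pairs.

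**Figure D1:**
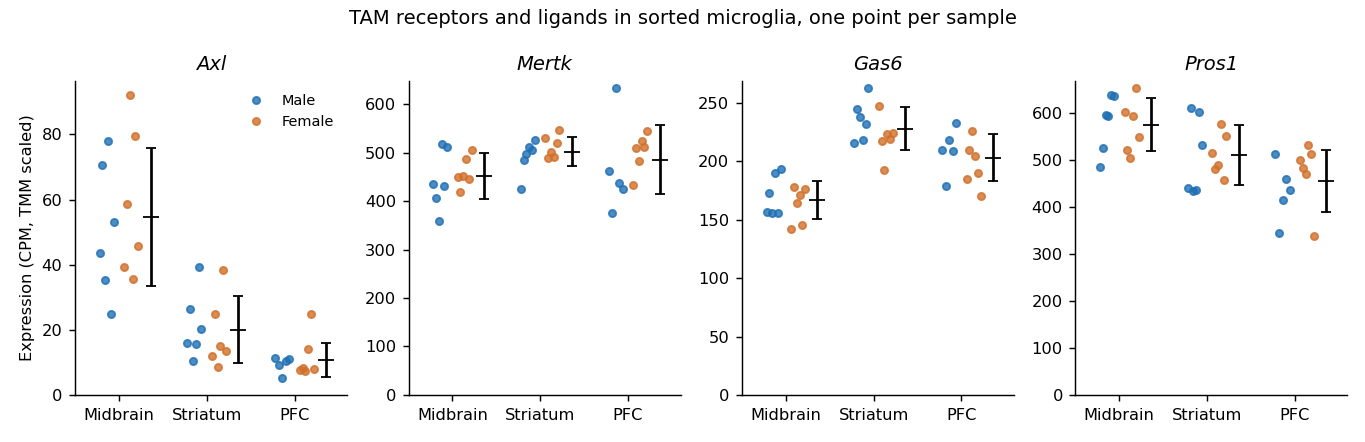
Expression (CPM, linear axes from 0) of Axl, Mertk, Gas6 and Pros1 in each sample by region, with males in blue and females in orange and the mean ± SD of each region in black. Every midbrain sample of Axl (24.88 to 92.1 CPM) lies above every PFC sample (5.29 to 24.87 CPM), whereas the regions overlap for the other 3 genes.

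Axl, the low-abundance receptor, fell in steps from midbrain to striatum to PFC. In the 12 midbrain samples Axl ran from 24.88 CPM (mouse 9) through a median of 49.4 to 92.1 CPM (mouse 6). In the 12 striatum samples it ran from 8.42 CPM (mouse 6) through 15.8 to 39.3 CPM (mouse 9), and in the 11 PFC samples from 5.29 CPM (mouse 7) through 9.18 to 24.87 CPM (mouse 10). The midbrain and PFC samples did not overlap, though only by the margin between mouse 9 in the midbrain and mouse 10 in the PFC. Such a separation, with every midbrain sample above every PFC sample, was seen in 0.348% of all genes. The striatum overlapped both, with 3 of its samples at or above the lowest midbrain sample and 9 at or below the highest PFC sample. No Axl value was near the detection floor, since the smallest count was 259.

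Mean Axl in the midbrain was 54.7 ± 21.1 CPM (SD, n = 12), against 19.995 ± 10.3 in the striatum (n = 12) and 10.7 ± 5.27 in the PFC (n = 11). Axl was 5.13-fold lower in PFC compared to midbrain (log2 fold change -2.36, SE 0.27, edgeR adjusted p = 1.49e-07), and it was lower in 11 of 11 mice. In striatum compared to midbrain it was 2.72-fold lower (log2 fold change -1.44, SE 0.25, adjusted p = 0.000301), and lower in 11 of 12 mice, with mouse 9 going the other way by 0.66 on the log2 scale. Axl was also higher in striatum compared to PFC in 11 of 11 mice, with a log2 fold change of 0.91 (SE 0.26), a difference called by the post hoc rule whose p adjusted over all genes was 0.0979. The full order midbrain over striatum over PFC was seen in 10 of 11 mice with all regions. Genes with this order and all 3 pairs called numbered 133, or 0.626% of the table, and Axl was the only member among them.

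**Figure D2:**
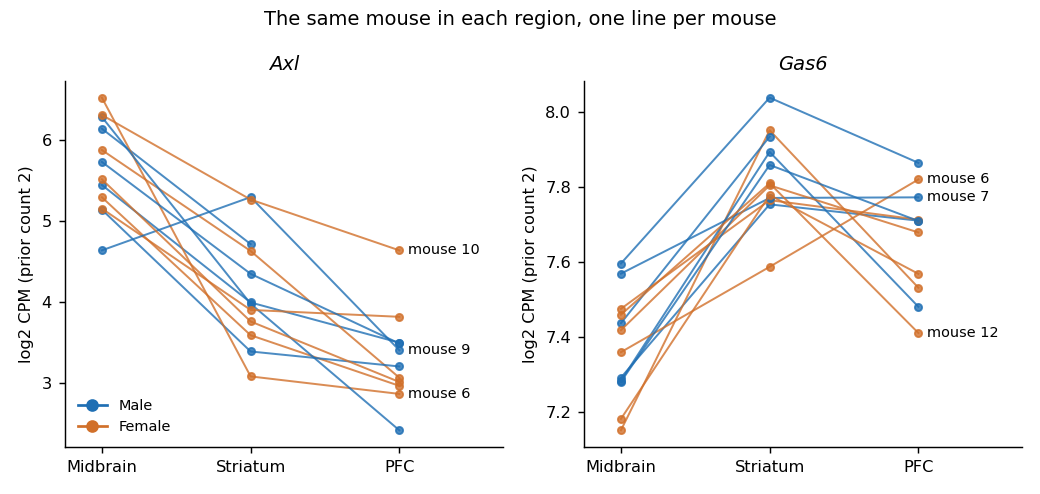
log2 CPM of Axl (left) and Gas6 (right) in midbrain, striatum and PFC, with each line joining the samples of 1 mouse, males in blue and females in orange. Axl falls from midbrain to PFC in all 11 mice with both regions and rises from midbrain to striatum in mouse 9 only, while Gas6 is higher in striatum than in midbrain in all 12 mice and lower in PFC than in midbrain in mouse 12 only.

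Axl was lower in PFC compared to midbrain both among mice 1 to 6 (log2 fold change -2.70, adjusted p = 0.00012) and among mice 7 to 12 (-2.13, adjusted p = 0.00645), a division by mouse number that the labels do not call a batch. In striatum compared to midbrain the values were -1.80 (adjusted p = 0.004) and -1.15 (adjusted p = 0.106), and both were called by the post hoc rule. With the striatum sample of mouse 3 left out, the difference between striatum and midbrain was -1.49. The difference between striatum and PFC was not called once an index of markers of astrocytes, oligodendrocytes, neurons and endothelium entered the model, where its log2 fold change was 0.55 (adjusted p = 0.763). The corresponding values for PFC and striatum against midbrain were -2.38 and -1.84, both called.

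Border macrophages also express Axl, so their markers are given beside it. Of the 10 markers listed, 9 were measured and Lyve1 is not in the table. Their summed level ran from 2.50 to 141 CPM in the midbrain, 4.40 to 14.8 in the striatum and 3.24 to 11.1 in the PFC. Mrc1, a defining marker, had a mean of 4.18 CPM in the midbrain, 3.81 in the striatum and 5.61 in the PFC, and Cd163 had at most 3 counts in 8 of 12, 11 of 12 and 9 of 11 samples. Ms4a7, Clec12a and Clec4n were the 3 of 9 markers called lower in PFC compared to midbrain, and most of the excess in the midbrain of mouse 6, which had the highest Axl, was Ms4a7 at 97.9 CPM. Without mouse 6 the Axl differences were -2.23 for PFC and -1.29 for striatum against midbrain, and both were called. With an index of border macrophage markers in the model they were -2.03 and -1.34, also called (adjusted p = 1.06e-06 and 0.000233). In bulk samples fewer cells of a kind with Axl and less Axl RNA per cell cannot be told apart.

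Mertk, the abundant receptor, showed no regional difference that passed the test (region adjusted p = 0.249). It ran from 358 CPM through a median of 448 to 518 CPM in the midbrain, from 425 through 503 to 547 in the striatum and from 375 through 484 to 634 in the PFC, so the regions overlapped throughout. Mean Mertk in the midbrain was 452 ± 47.1 CPM (SD, n = 12), against 502 ± 30.7 in the striatum (n = 12) and 485 ± 70.7 in the PFC (n = 11). The log2 fold change was 0.15 in striatum compared to midbrain, with a 95% confidence interval of 0.03 to 0.28 and an adjusted p of 0.137, and it was positive in 10 of 12 mice. For PFC compared to midbrain it was 0.10 (-0.02 to 0.23), and for striatum compared to PFC 0.05 (-0.07 to 0.18). None of these intervals reaches the size of the Axl differences. With the mouse number as a block, the difference of Mertk between striatum and midbrain was 0.16 (edgeR adjusted p = 0.032), and it was not called.

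Tyro3 (ENSMUSG00000027298), the remaining TAM receptor and in the brain chiefly a receptor of neurons, was barely detected. Its mean in the midbrain was 0.12 ± 0.20 CPM (SD, n = 12), against 0.94 ± 0.58 in the striatum (n = 12) and 0.40 ± 0.28 in the PFC (n = 11), and 8 of 12 midbrain, 1 of 12 striatum and 2 of 11 PFC samples had at most 3 counts. Tyro3 met the rule for higher expression in striatum (adjusted p = 0.00757) and in PFC (adjusted p = 0.135) compared to midbrain, but the size of a fold against samples at this floor depends on the fitting and is not given. The summed level of the neuronal markers was also higher in both regions compared to midbrain. Its mean was 5.93 CPM in the midbrain, 10.2 in the striatum and 15.7 in the PFC. The neuronal sum was therefore highest in the PFC, whereas mean Tyro3 was highest in the striatum. The part of neuronal RNA in the Tyro3 values was not tested.

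Gas6, the ligand that binds every TAM receptor, was lowest where Axl was highest. It ran from 142 CPM through a median of 168 to 194 CPM in the midbrain, from 192 through 224 to 263 in the striatum and from 170.2 through 209 to 233 in the PFC. Only 1 striatum sample (mouse 6) fell within the midbrain range, while 4 PFC samples were at or below the highest midbrain sample and 6 midbrain samples at or above the lowest PFC sample. Mean Gas6 in the midbrain was 167 ± 16.4 CPM (SD, n = 12), against 228 ± 18.4 in the striatum (n = 12) and 203 ± 19.9 in the PFC (n = 11). Gas6 was 1.37-fold higher in striatum compared to midbrain (log2 fold change 0.45, SE 0.05, adjusted p = 8.72e-07) and higher in 12 of 12 mice. It was 1.22-fold higher in PFC compared to midbrain (log2 fold change 0.29, SE 0.06, adjusted p = 0.00053) and higher in 10 of 11 mice. Striatum and PFC differed by a log2 fold change of 0.16, which is under the minimum fold change and had an adjusted p of 0.185.

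The striatum difference of Gas6 was 0.48 among mice 1 to 6 and 0.42 among mice 7 to 12, called in both. The PFC difference was 0.32 and 0.24 in the same divisions, and the second was under the minimum fold change of 1.2 and had an adjusted p of 0.067. Leaving out mouse 6, which had the second highest Gas6 of the PFC, gave 0.26 (adjusted p = 0.00259), just under that minimum. The summed level of astrocyte markers moved in the same direction as Gas6. Its mean was 241 ± 18.2 CPM in the midbrain, 358 ± 59.1 in the striatum and 349.9 ± 76.8 in the PFC. Of the 10 markers, 4 were called higher in each of striatum and PFC compared to midbrain. Slc1a3 (171 CPM in the midbrain) and Aldoc (43.2 CPM) were the largest parts of the sum. Gfap, Gjb6 and S100b had lower means in PFC compared to midbrain and were not called. Endothelial markers had sums of 29.4 ± 14.6, 43.7 ± 21.7 and 26.9 ± 6.7 CPM, with 0 of 8 called in any pair. With the index of these other brain cells in the model, the Gas6 differences were 0.45 for striatum and 0.29 for PFC against midbrain, both called.

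Pros1, which encodes protein S, was highest in the midbrain. It ran from 485 CPM through a median of 594 to 651 CPM in the midbrain, from 433 through 501 to 609.7 in the striatum and from 338 through 469 to 532 in the PFC, so that the regions overlapped. Mean Pros1 in the midbrain was 574 ± 56.02 CPM (SD, n = 12), against 509.6 ± 64.3 in the striatum (n = 12) and 455 ± 65.8 in the PFC (n = 11). Pros1 was 1.27-fold lower in PFC compared to midbrain (log2 fold change -0.34, SE 0.07, adjusted p = 0.00251) and lower in 10 of 11 mice. The striatum lay between the other regions, with log2 fold changes of -0.17 against midbrain (adjusted p = 0.158) and 0.17 against PFC (adjusted p = 0.357), neither of which was called. The PFC difference was -0.45 among mice 7 to 12 (adjusted p = 0.00933). Among mice 1 to 6 it was -0.23 (adjusted p = 0.344), and the effect of region was not called there (adjusted p = 0.44).

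**Figure D3:**
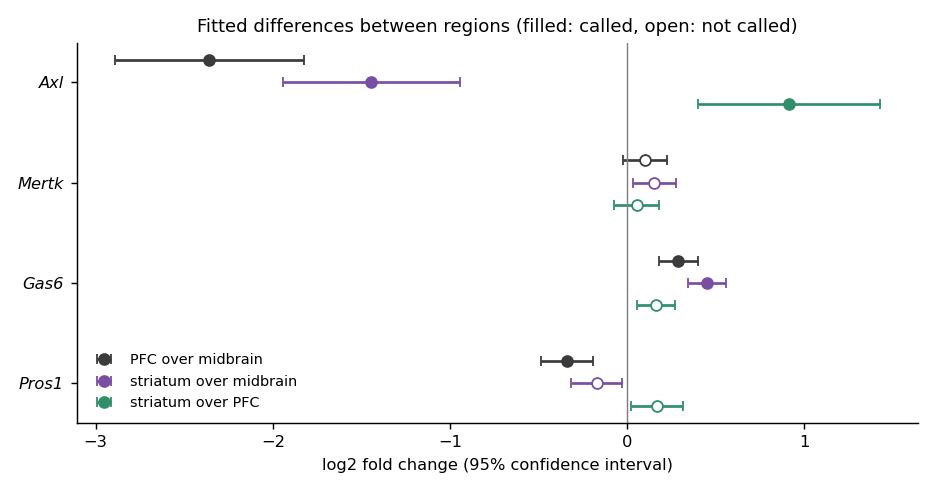
Fitted log2 fold change of each gene for PFC over midbrain, striatum over midbrain and striatum over PFC, with 95% confidence intervals, from 35 samples. Filled points were called by the post hoc rule, which Axl met in 3 pairs, Gas6 in 2, Pros1 in 1 and Mertk in none.

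The makeup of the receptor and the ligand pair differed between regions. Of the summed per-length level of Axl and Mertk, Axl made up 9.36 ± 3.25% in midbrain samples (SD, n = 12), 3.30 ± 1.61% in striatum samples (n = 12) and 1.89 ± 0.86% in PFC samples (n = 11). The share of single samples ran from 4.73 to 15.0% in the midbrain and from 0.714 to 4.01% in the PFC, without overlap. Gas6 made up 31.9 ± 3.16% of Gas6 and Pros1 in the midbrain, 41.9 ± 2.96% in the striatum and 41.9 ± 3.45% in the PFC, and its share ran from 26.3 to 35.4% in the midbrain and from 37.3 to 46.2% in the PFC. Within mice, the log2 ratio of Gas6 to Pros1 was higher in striatum compared to midbrain by 0.63 ± 0.30 (12 of 12 mice) and in PFC compared to midbrain by 0.65 ± 0.22 (11 of 11 mice). These shares restate the differences of the single genes and carry no test of their own.

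Sex made no difference that passed the test for any of the 4 genes. A gene was called for sex with an unadjusted p under 0.05 and a fold change over 1.2, which 4.13% of all genes met over the regions together, 4.84% within the midbrain, 2.28% within the striatum and 5.29% within the PFC, and 0 of 4 members met it in any of these. The log2 fold change of males over females, with regions together, was -0.10 for Axl (95% confidence interval -0.51 to 0.31), -0.07 for Mertk (-0.17 to 0.03), 0.08 for Gas6 (-0.01 to 0.17) and -0.03 for Pros1 (-0.15 to 0.09). The interval is wide for Axl, so that differences between the sexes of up to -0.51 on the log2 scale lie within it. Sex is a trait of the mouse, and these intervals treat the samples of a mouse as independent, so they may be too narrow. With the mouse as a random effect in limma-voom, the log2 fold changes were -0.07 for Axl, -0.08 for Mertk, 0.08 for Gas6 and -0.03 for Pros1, none of them called. Mean Axl in males and females was 50.9 ± 20.5 and 58.5 ± 22.9 CPM in the midbrain (n = 6 each), 21.3 ± 10.3 and 18.7 ± 11.1 in the striatum (n = 6 each), and 9.49 ± 2.49 (n = 5) and 11.7 ± 6.92 (n = 6) in the PFC. The interaction of region and sex had an adjusted p of 1 for each member, and edgeR called 0.00% of genes for it (0 of 21236 genes, with 632 at an unadjusted p under 0.05).

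A wider set of 97 genes around the TAM system, listed by role and without the 4 members, held 24 genes called in PFC compared to midbrain (5 higher and 19 lower, or 5.15% and 19.6% of the set). In striatum compared to midbrain 7 were higher and 18 lower (7.22% and 18.6%), and in striatum compared to PFC 9 were higher and 0 lower (9.28%). With the mouse number as a block, 31, 33 and 14 genes of the set were called in these pairs. The corresponding shares of all genes were given above, and the lists were written with earlier results of these data known.

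**Figure D4:**
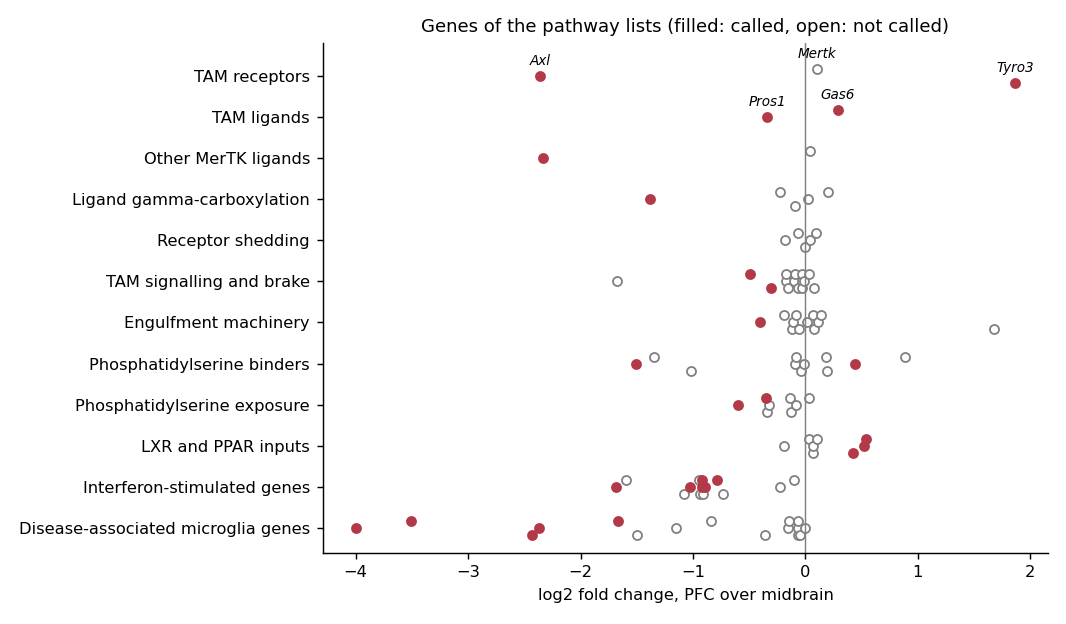
log2 fold change of PFC over midbrain for each measured gene of the 12 role lists, 1 list per row, with called genes filled and the other genes open. The lower calls lie mostly in the interferon-stimulated list (6 of 14) and the disease-associated list (5 of 16), and the 3 calls among LXR and PPAR inputs lie on the higher side.

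Among other reported ligands of MerTK, Lgals3 (galectin-3) had the order of Axl, with a mean of 14.9 ± 4.72 CPM in the midbrain, 6.94 ± 1.70 in the striatum and 2.94 ± 1.45 in the PFC. Its log2 fold change in PFC compared to midbrain was -2.34 (adjusted p = 7.34e-10), and it was called in every pair. Tub, another reported ligand, was near 0.47 CPM in the midbrain and was not called. The vitamin K-dependent carboxylation that Gas6 and protein S need for binding phosphatidylserine is carried by Ggcx and Vkorc1, and neither was called. Of the 5 genes in that list, 1 was called, Fam20c, a kinase of the secretory pathway and not a carboxylase. Fam20c was lower in PFC (log2 fold change -1.38, adjusted p = 2.48e-06) and in striatum (-0.63) compared to midbrain. It was also called higher in striatum compared to PFC (0.76), while the median of the list was -0.09 for PFC over midbrain. In the list of receptor shedding, which holds the proteases Adam10 and Adam17 that cut TAM receptors from the membrane, 0 of 5 were called in any pair (with the mouse number as a block, 1 was called higher in striatum compared to midbrain and 1 compared to PFC), and the median log2 fold change of PFC over midbrain was -0.0035.

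Downstream of the receptors, in the list of signalling and the cytokine brake, Ptk2 (focal adhesion kinase) was called lower outside the midbrain, with log2 fold changes of -0.49 in PFC and -0.61 in striatum. The suppressors Socs1 and Socs3 and the interferon receptor subunits Ifnar1 and Ifnar2 were not called, and the median of the list was -0.09 for PFC over midbrain. Of 12 genes of the engulfment machinery, which moves the actin cortex around the prey, 1 was called: Itgb3, an integrin subunit, was lower in PFC compared to midbrain (log2 fold change -0.40, adjusted p = 0.00932) and higher in striatum compared to PFC. Rac1, Elmo1 and Dock2 of the same list were not called, and its median was -0.02 for PFC over midbrain.

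Other proteins that bind phosphatidylserine moved in both directions, with 4 of 11 measured having an effect of region and a median log2 fold change of -0.04 for PFC over midbrain. Cd300a, an inhibitory receptor, was higher in PFC (log2 fold change 0.44, adjusted p = 5.69e-07) and striatum (0.34) compared to midbrain, as Gas6 was. Stab1, a scavenger receptor, and Mfge8, a secreted bridging protein, were called higher in striatum compared to midbrain (0.57 and 0.46) and to PFC. Cd300lf, an activating or inhibiting receptor depending on its partner, was lower in PFC (-1.51) and striatum (-1.27) compared to midbrain. Among 8 measured genes that expose or hide phosphatidylserine, Plscr1 (an interferon-induced scramblase family member) was lower in PFC (-0.60) and in striatum (-0.36) compared to midbrain, and the median of these 8 was -0.23 for PFC over midbrain.

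Transcription of Mertk and Axl is known to respond to different signals, LXR and PPAR ligands for the former and interferon for the latter. Of 8 measured genes of LXR and PPAR signalling, 3 were called and each was higher outside the midbrain. The cholesterol exporters Abca1 and Abcg1, both LXR targets, rose in PFC by log2 fold changes of 0.52 (adjusted p = 4.03e-05) and 0.54 (adjusted p = 1.24e-05), and Rxra, the partner of LXR, by 0.42 (adjusted p = 0.00519). The receptors Nr1h2 and Nr1h3 were not called, and the median of the list was 0.09.

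The interferon-stimulated list went with Axl in direction, with 6 of 14 genes called lower in both PFC and striatum compared to midbrain and median log2 fold changes of -0.92 and -1.03, against a median of 0.01 over all genes. With the mouse number as a block, 11 of the 14 were called lower in each of these pairs. Ifi27l2a fell by 1.68 on the log2 scale in PFC (adjusted p = 0.000119), Isg15 by 0.92 (adjusted p = 0.0245) and Oas1a by 0.89 (adjusted p = 0.0161). In striatum compared to PFC, 0 of the 14 were called and the median was -0.01, whereas Axl was called higher in the striatum. In the list of disease-associated microglia genes, to which Axl is often counted, 5 of 16 were called lower in PFC and in striatum compared to midbrain. Spp1 (log2 fold change -3.51), Lpl (-2.43), Clec7a (-2.37) and Itgax (-1.66) were lower in PFC and, like Axl, were also called higher in striatum compared to PFC. Trem2, Tyrobp and Ctsd of that list were not called.

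The transcripts whose log2 CPM followed each member most closely over the 35 samples were taken from genes with a mean of at least 8 CPM, as a description in which the samples share mice, regions and libraries. For Axl these were Itgax (Pearson's r = 0.92), Cybb (0.91), Fxyd5 (0.90), Gpr65 (0.88) and Ctsc (0.88), and each was lower in PFC compared to midbrain. With the mean of each region and sex removed, r with Axl was 0.76 for Itgax, 0.72 for Cybb and 0.52 for Ctsc. For Mertk the closest were Mavs (0.80), Osbpl11 (0.77), Tbl2, Cnot2 and Rnf216 (0.75 each), for Gas6 Eepd1 (0.79), Nid2 (0.78), Cyp4f13 (0.77), Ctsa (0.75) and Abcc3 (0.74), and for Pros1 Glb1 (0.88), Itga6 (0.86), Extl3 (0.83), Galnt7 (0.79) and Lhfpl2 (0.78). Among the members themselves, r was -0.48 between Axl and Gas6 and 0.61 between Axl and Pros1, and with group means removed these were 0.16 and 0.20. For Gas6 and Mertk, r was 0.48 over all samples and 0.41 with group means removed.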

How the data were processed

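RNA of sorted cells was amplified with a Smart-Seq kit and sequenced as paired reads. The authors trimmed reads with Trimmomatic, aligned them with HISAT2 to GRCm38, counted them per Ensembl gene and removed genes of low expression, and the deposited values are raw counts without normalization. Which program and gene models served for counting, whether strand was used and how reads with several matches were handled is not given in the sources used here. Amplified reads without molecular identifiers are not independent, so the floor of 3 counts covers counting error only.

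Symbols and exon lengths came from GENCODE M21 (21103 of 21236 genes have a symbol), and promoters from RefSeq (GRCm38.p6, all 4 members matched). CPM use the TMM factors of edgeR 4.0.16, and log2 CPM a prior count of 2. Region, its pairs and sex were tested with edgeR's robust quasi-likelihood F-test with region and sex as additive terms, and sex within regions and the interaction with a mean per region and sex, with Benjamini-Hochberg adjustment over all genes. The thresholds are those of the study's methods, and a 95% interval is the estimate ± 1.96 SE. The fits were tested on simulated data, and a planned sign-flip test of the ratios is not reported, since they are described only.

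Samples of the same number come from the same mouse, by the titles and the study's number of mice, and their deviations from the group means correlated at over 0.1 in 27 of 34 pairs. Alternatives were the mouse number as a block, DESeq2 1.42.0, its size factors in edgeR, filterByExpr, limma-voom, marker indices as covariates, mice 1 to 6 and mice 7 to 12 alone, other settings of the call and prior count, and samples or mice left out. The members, lists and tests were chosen with earlier results of these data known. Named genes are the members and Tyro3, list genes with a called pair (values for up to 4 per list by region adjusted p, with some uncalled genes named as such), and the 5 closest transcripts to each member. Some genes of the lists are not reported here.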

Additional observations from a re-analysis of the deposited data

Results flagged for a closer look

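One value stood apart from the other samples of its group. Pros1 in the PFC of female mouse 12 was 338.1 CPM, the lowest of 6, with the next sample at 469 CPM and a gap of 0.677 of the group's range. Dixon's test at this level flags about 1 in 20 groups by chance, and 24 groups were examined. Without mouse 12 the log2 fold change of Pros1 between striatum and PFC was 0.12, against 0.17 with it, and neither was called.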

How the results depend on the processing

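Of 226 alternatives to the reported values, besides leaving out single mice, 219 were rated as unchanged, which for the tests of single genes means the same direction and call. The 226 include the ratios, which have no call. They also include the counts of list genes, where moderate shifts such as 24 to 31 were rated as unchanged. The difference of Axl between striatum and PFC was no longer called with an index of other brain cells as a covariate (log2 fold change 0.55) or with an adjusted p for the contrast (0.91, adjusted p = 0.0979), and over all alternatives its adjusted p was 0.0238 to 0.763. Gas6 in PFC over midbrain was under the minimum fold change in mice 7 to 12 (0.24). Pros1 in mice 1 to 6 lost its effect of region (adjusted p = 0.44) and its PFC difference (-0.23). The uncalled sex difference of Axl turned to 0.065 in mice 1 to 6. The cause of these changes was not tested, and the fits of mice 1 to 6 or mice 7 to 12 also hold fewer mice. With the replicate block (mouse number, a paired analysis), the calls of the 4 members did not change, with Axl at -2.37 for PFC over midbrain and Mertk at a region adjusted p of 0.069. Mertk in striatum over midbrain was 0.16 in that edgeR fit (adjusted p of the contrast 0.032), under the minimum fold change. The list genes called went from 24 to 31 in PFC over midbrain, from 25 to 33 in striatum over midbrain and from 9 to 14 in striatum over PFC, and those of the interferon-stimulated list from 6 to 11 in each pair with midbrain.

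With each mouse left out, PFC over midbrain ran from -2.50 to -2.23 for Axl, 0.26 to 0.31 for Gas6 (called except without mouse 6) and -0.39 to -0.30 for Pros1, and the uncalled sex differences turned sign for Axl without mouse 10 (range -0.20 to 0.17) and for Pros1 without mouse 8 (-0.071 to 0.00075). Counts near the floor limit Tyro3 and not the 4 members, whose smallest count was 259 (Axl in the PFC).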
